A study of Rattus norvegicus with 4 samples.

Results

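The genes that carry cells from G1 into S phase were followed in rat embryoid bodies, the aggregates that pluripotent cells form as they begin to differentiate. The set holds 10 genes of the 32753 measured: the D-type cyclins Ccnd1, Ccnd2 and Ccnd3, the E-type cyclins Ccne1 and Ccne2, the kinases Cdk4 and Cdk6, and the inhibitors Cdkn1b, Cdkn2a and Cdkn2b. They were taken by gene symbol, and each symbol matched 1 row. Rat embryonic stem cells of the strain labelled DASD, either wild type (WT) or Kcnh2-/-, were compared, with 2 RNA-seq libraries per genotype. All 4 libraries came from cells at day 4 of differentiation, after 2 days in hanging drops of 20 µl, 24 hours on laminin and 1 day in a medium called DM. Both genotypes received CHIR9902 (0.75 µM) and the MEK inhibitor PD0325901 (0.1 µM) before that last day, and the ROCK inhibitor Y27632 (10 µM) in the drops. Kcnh2 encodes the voltage-gated potassium channel ERG1. The labels do not say how the gene was altered or how many cell lines were used, nor whether the replicates were separate cultures, so p-values measure only the spread between these libraries.

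D-type cyclins bind CDK4 and CDK6 and phosphorylate the retinoblastoma family of pocket proteins. E-type cyclins with CDK2 complete that step and release the E2F factors, which turn on the genes of DNA synthesis. INK4 proteins such as p16 and p15 (from Cdkn2a and Cdkn2b) bind CDK4 and CDK6 themselves, while p27 (from Cdkn1b) binds whole cyclin-CDK complexes. Naive pluripotent cells are known for a short G1 with high cyclin E and silent INK4 genes, and D-type cyclins and INK4 genes come on as cells differentiate.

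The unit is RPKM, which divides reads by transcript length and by library size, so levels can be compared between genes. Between 17610 and 17833 genes were above 0 in each library, and absolute depth is not known. Kcnh2 stood at 2.61 RPKM in WT replicate 1, 1.45 in WT replicate 2 and 0.108 and 0.504 in the Kcnh2-/- replicates, so the groups did not overlap at this low level. WT replicate 1 stood apart in its cell type markers. The mesoderm and cardiac markers (10 genes) summed to 706 RPKM in it, against 57.2 in WT replicate 2 and 93.1 and 18.8 in Kcnh2-/- replicates 1 and 2. Tnnc1 (349 RPKM) and Actc1 (310) made up most of the 706. Eomes went the other way and was lowest in WT replicate 1, at 8.70 RPKM against 9.05 to 11.5 elsewhere. Pluripotency markers (9 genes measured) summed to 517 RPKM in WT replicate 1 and to 1641, 1269 and 1971 in the others. All but 1 of them were above 0 in every library. In WT replicate 1 Pou5f1 made up 273 of the 517 RPKM and Nanog stood at 2.496. The sum alone therefore does not establish that this library held pluripotent cells. The RPKM sums also split by replicate number, at 7.95e+07 and 1.09e+08 in the replicate 1 libraries while those of replicate 2 reached 1.17e+07 and 8.93e+06. Most of each sum lay outside protein-coding genes. The labels name no batch and no pairing by number. Differences within each number are therefore given beside the pooled ones.

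Promoter sequence was on hand for 6 of the 10 genes, from RefSeq (build GRCr8, another build than that of the expression files), each running from 250 bases before to 50 after the start site. That of Cdk4, the most abundant of the 10 and the steadiest in RPKM as deposited, is shown. Those of Cdkn2a and Cdkn2b, the neighbouring genes with the widest spans after Ccnd2, are shown too. The start site used need not be the only one of a gene, while RPKM covers the whole gene. Capitals in Cdk4 (chr7:64771203-64771502, + strand) mark CACGTG, the E-box core that MYC family proteins read, and ATCAAAG, the core of TCF sites. Capitals in Cdkn2a (chr5:109107907-109108206, - strand) and Cdkn2b (chr5:109134806-109135105, - strand) mark GGGCGG, the GC box, or its reverse complement, and TGACGTCA, the cyclic AMP response element.
Cdk4: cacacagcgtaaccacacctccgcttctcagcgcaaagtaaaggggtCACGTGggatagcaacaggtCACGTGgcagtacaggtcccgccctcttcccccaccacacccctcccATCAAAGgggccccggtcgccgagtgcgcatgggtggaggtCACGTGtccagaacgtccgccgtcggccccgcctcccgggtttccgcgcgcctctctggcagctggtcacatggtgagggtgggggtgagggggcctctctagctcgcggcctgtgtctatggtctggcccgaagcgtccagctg
Cdkn2a: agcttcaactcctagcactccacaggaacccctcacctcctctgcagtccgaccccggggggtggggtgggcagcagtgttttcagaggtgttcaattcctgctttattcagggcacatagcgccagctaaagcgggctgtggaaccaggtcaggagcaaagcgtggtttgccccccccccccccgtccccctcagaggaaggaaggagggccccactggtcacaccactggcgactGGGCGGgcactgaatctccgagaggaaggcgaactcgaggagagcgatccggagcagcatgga
Cdkn2b: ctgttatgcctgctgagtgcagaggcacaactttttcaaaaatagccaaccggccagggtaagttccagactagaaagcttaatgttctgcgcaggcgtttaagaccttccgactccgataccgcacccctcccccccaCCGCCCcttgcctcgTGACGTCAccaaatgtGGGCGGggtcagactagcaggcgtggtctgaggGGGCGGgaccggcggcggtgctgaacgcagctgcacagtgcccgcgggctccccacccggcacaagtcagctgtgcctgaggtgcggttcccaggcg
CACGTG occurred 3 times in the Cdk4 promoter. Of 33469 promoters of the same length, 6.42% held it at least once and 0.0568% held it 3 or more times. ATCAAAG occurred once in Cdk4, and 3.63% of promoters held it on either strand. GGGCGG was found in all 6 promoters, 3 times in Cdkn2b, Ccnd3 and Ccne1 and once in Cdkn2a, Cdkn1b and Cdk4, where it is not capitalised. Of all promoters 33.1% had at least 1 match and 8.97% had 3 or more. TGACGTCA was found once in Cdkn2b and in 1.83% of promoters. Of the 6 promoters, 0 held the E2F letters TTTCCCGC, TTTGGCGC, TTTCGCGC or TTTGCCGC, which 2.14% of all promoters hold on either strand. The E-box core, the GC box and the cyclic AMP response element were searched after the sequences were seen, and a match is a description of letters only.

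In RPKM as deposited, Cdk4 RNA was by far the most abundant of the set and hardly varied. Ccnd2, Cdkn2a and Cdkn2b varied 31.8-fold or more between libraries. The evenness of Cdk4 depends on the scaling. Protein-coding RPKM summed to 1.02e+06 and 712153 in WT replicates 1 and 2, and to 588638 and 865709 in Kcnh2-/- replicates 1 and 2. By mean RPKM over the 4 libraries the order was Cdk4 (393), Ccne1 (106), Ccnd3 (45.3), Ccnd1 (26.4), Ccnd2 (21.8), Cdkn2a (17.2), Cdk6 (13.8), Cdkn1b (12.95), Cdkn2b (12.5) and Ccne2 (10.1). Only Cdk4 had a range over the 4 libraries that did not overlap that of the next gene. The ranges of every other pair of neighbours in that order overlapped. Within each library, though, Ccne1 exceeded Ccnd3 and Ccnd3 exceeded Ccnd1. From its lowest to its highest library, Cdk4 differed by 1.19-fold, Ccnd1 by 1.79-fold and Cdkn1b by 1.97-fold. The same ratio was 31.8 for Cdkn2a, 55.7 for Cdkn2b and 234 for Ccnd2. All 10 genes passed the filter of 1 RPKM in at least 2 libraries.

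**Figure D1:**
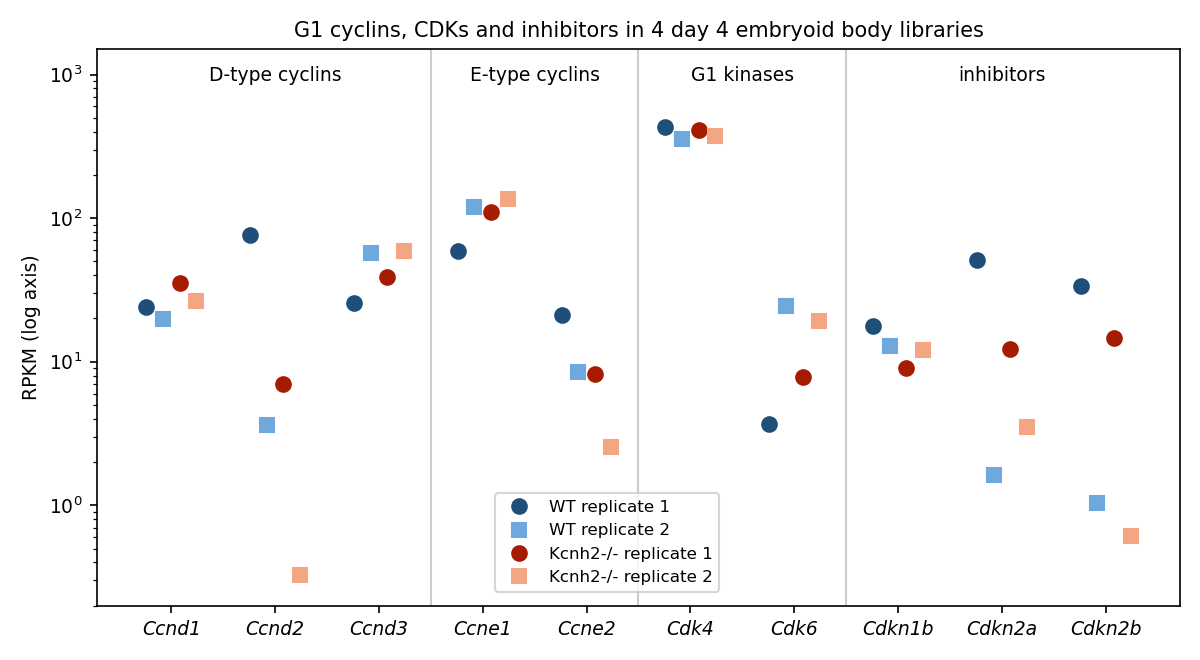
RPKM of each of the 10 genes (log axis) in each library, with genotype by colour and replicate number by shape. Cdk4 lies between 358 and 428 RPKM in every library, and Ccnd2 runs from 0.327 to 76.4.

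None of the 10 passed the test between genotypes, which was fitted with no term for replicate number. Limma on log2(RPKM + 1) gave an adjusted p of 0.980 or more for each, and 0 of the 10 had an unadjusted p under 0.05. Over all 12355 genes tested, limma called 14, or 0.113%, and 418 had an unadjusted p under 0.05. An exact permutation test of 2 against 2 libraries cannot go below p = 0.333. Ccnd1 was higher in both Kcnh2-/- libraries than in either WT library, which was true of 16.7% of all genes tested. Ccne2 and Cdkn1b were lower with no overlap, as were 15.3% of all genes. With 3 of 10 not overlapping, the set stood near the background. The median log2 difference over the 10 was -0.25, and over all genes tested it was 0.0052.

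Among the D-type cyclins, Ccnd2 (rn6 chromosome 4, 159674884 to 159697207) held the largest difference. WT replicate 1 held 76.4 RPKM and WT replicate 2 held 3.60, while Kcnh2-/- replicate 1 held 7.02 and Kcnh2-/- replicate 2 held 0.327. WT replicate 1 alone was high, Kcnh2-/- replicate 2 was close to 0, and the groups overlapped. The log2 difference was -2.53 ± 1.62 (SE, limma adjusted p = 0.980, n = 2 per genotype). Within replicate 1 RPKM was 10.9-fold higher in WT and within replicate 2 it was 11.02-fold higher in WT. The gap between replicates was larger still, since replicate 1 exceeded replicate 2 by 21.2-fold in WT and by 21.5-fold in Kcnh2-/-. Without WT replicate 1 the log2 difference was -0.50, without WT replicate 2 it was -4.57, without Kcnh2-/- replicate 1 it was -3.83, and without Kcnh2-/- replicate 2 it was -1.23.

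Genes of differentiated cells came nearest to Ccnd2 in pattern. Among 8008 other protein-coding genes whose mean reached 5 RPKM, the 3 whose centred log2 values lay nearest to those of Ccnd2 were Actc1, Ttr and Tnnc1, at root mean square distances of 0.14, 0.34 and 0.37 over the 4 libraries. Actc1, which encodes cardiac actin, was at 310 and 23.5 RPKM in the WT libraries and at 37.3 and 5.14 in Kcnh2-/-. Tnnc1 encodes cardiac troponin C and Ttr a thyroid hormone carrier of endoderm. The part of cell composition in the Ccnd2 difference was not tested. In RNA from whole aggregates, fewer cells of a type and less RNA per cell cannot be told apart.

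Ccnd1 (rn6 chromosome 1, 218090749 to 218100325), a cyclin gene driven by growth factor and Wnt signals, was at 24.0 and 19.7 RPKM in the WT libraries and 35.3 and 26.7 in Kcnh2-/-. Both Kcnh2-/- libraries were the higher ones. The log2 difference was 0.48 ± 0.29 (SE, limma adjusted p = 0.980), with 0.54 within replicate 1 and 0.42 within replicate 2. It lay between 0.28 and 0.67 when any library was left out. The nearest genes in pattern were Ssr4, Phf8 and Tars, at distances of 0.012, 0.034 and 0.049. Ssr4 encodes a subunit of the translocon-associated protein complex, Phf8 a histone demethylase and Tars a threonyl-tRNA synthetase.

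Ccnd3 (rn6 chromosome 9, 15404821 to 15410943) was at 25.7 and 57.5 RPKM in the WT libraries and at 38.7 and 59.4 in Kcnh2-/-. It was lower in the replicate 1 libraries of both genotypes, the opposite of Ccnd2, and the groups overlapped. The log2 difference of 0.31 ± 0.48 (SE, limma adjusted p = 0.980) was 0.57 within replicate 1 and 0.048 within replicate 2, and it was -0.26 without WT replicate 1. Pdp2, Oip5 and Fh were nearest in pattern, at distances of 0.039, 0.039 and 0.043. Pdp2 encodes a pyruvate dehydrogenase phosphatase, Oip5 a centromere factor and Fh fumarate hydratase.

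The make-up of the D-type cyclin pool differed more than its size. The 3 genes summed to 126 RPKM in WT replicate 1 and to 80.8, 81.0 and 86.4 RPKM in WT replicate 2 and Kcnh2-/- replicates 1 and 2. Ccnd2 took 60.6% of the sum in WT replicate 1, 4.46% in WT replicate 2, 8.67% in Kcnh2-/- replicate 1 and 0.378% in Kcnh2-/- replicate 2. Ccnd3 took 20.4%, 71.2%, 47.8% and 68.8% in the same order, and was the leading D-type cyclin in every library but WT replicate 1. The share of Ccnd1 was 19.0% and 24.4% in WT and 43.6% and 30.9% in Kcnh2-/-, with no overlap. A share within a library does not depend on how that library was scaled.

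**Figure D2:**
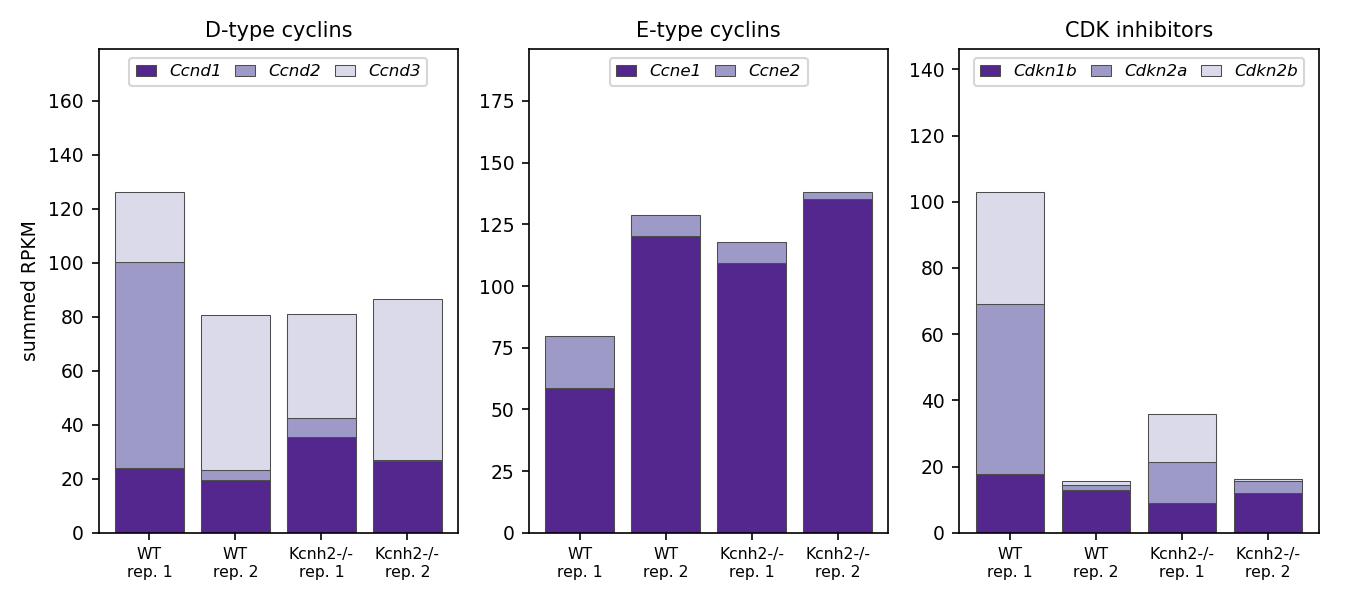
Summed RPKM (linear axis from 0) of the D-type cyclins, the E-type cyclins and the 3 inhibitors in each library, stacked by gene. WT replicate 1 has the highest D-type and inhibitor sums, 126 and 103 RPKM, and the lowest E-type sum, 79.6 RPKM.

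The log2 differences of the E-type cyclins had opposite signs. Ccne1 (rn6 chromosome 1, 94485831 to 94494980) was at 58.6 and 120 RPKM in the WT libraries and at 109 and 135 in Kcnh2-/-, with WT replicate 1 alone low. Genotypes differed by a log2 of 0.53 ± 0.42 (SE, limma adjusted p = 0.980), 0.89 within replicate 1 and 0.17 within replicate 2. Without WT replicate 1 it was 0.018. Ccne2 (rn6 chromosome 5, 24434871 to 24493670) was at 21.0 and 8.55 RPKM in the WT libraries and at 8.17 and 2.54 in Kcnh2-/-, so the groups touched but did not overlap. Genotypes differed by a log2 of -1.35 ± 0.67 (SE, limma adjusted p = 0.980), -1.27 within replicate 1 and -1.43 within replicate 2. It ranged from -2.04 to -0.66 when a library was left out, and was -0.74 without WT replicate 1. The locus of Ccne2 in the files is shared with Ints8, a subunit gene of the Integrator complex, at 66.2 and 45.8 RPKM in the WT libraries and 68.9 and 57.6 in Kcnh2-/-. How reads were divided between the pair was not given in the sources used here. Ccne1 made up 73.6% of E-type cyclin RPKM in WT replicate 1, 93.4% in WT replicate 2, and 93.1% and 98.2% in Kcnh2-/-.

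Only Ccnd2 and Ccne2 were lower in Kcnh2-/- by a log2 of 1 or more within both replicate numbers, a limit chosen after the values were seen, and 1.08% of all genes tested were. In either size, 4 of the 10 were lower within both numbers (Ccnd2, Ccne2, Cdkn1b and Cdkn2b), against 28.1% of all genes, and 3 were higher (Ccnd1, Ccnd3 and Ccne1), against 30.8%. Differences between replicate numbers were often as large or larger. Ccnd2, Ccne2, Cdkn2a and Cdkn2b were higher in replicate 1 than in replicate 2 by a log2 of 1 or more in both genotypes, as were 2.87% of all genes. Cdk6 was the only one of the 10 that was as much higher in replicate 2 in both, as were 4.78% of all genes. Over the 10 genes the median absolute log2 difference between replicates was 1.17 in WT and 0.90 in Kcnh2-/-, and that between genotypes was 0.52. Over all genes tested the same medians were 0.50, 0.34 and 0.29. For Ccnd1 the genotype differences (0.54 and 0.42) exceeded those between replicates (-0.27 in WT and -0.39 in Kcnh2-/-) in size, and for Ccne2 they were of like size (-1.27 and -1.43 against -1.21 and -1.37).

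**Figure D3:**
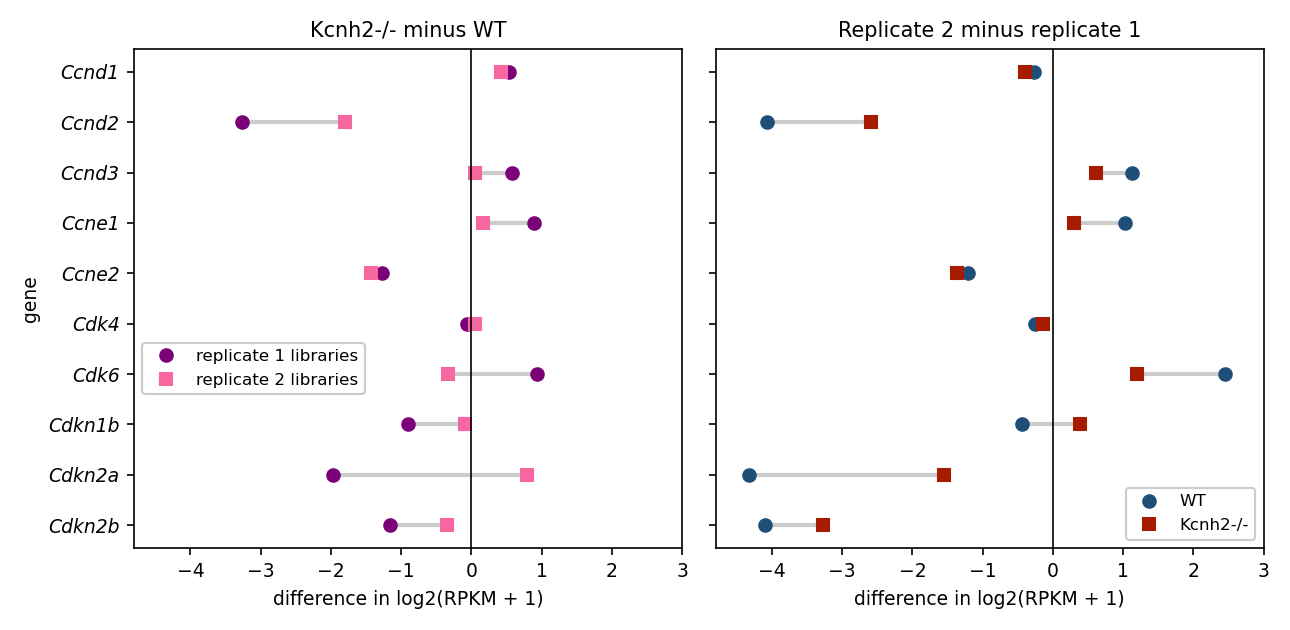
Differences in log2(RPKM + 1) for each gene, between genotypes within each replicate number (left) and between replicate numbers within each genotype (right). Ccnd2 and Ccne2 lie left of 0 in both panels, while Cdk4 lies between -0.25 and 0.058 throughout.

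Of the kinase genes, Cdk4 was even across the libraries in RPKM as deposited and Cdk6 followed the replicate number. Cdk4 (rn6 chromosome 7, 70349862 to 70355619), the main partner of D-type cyclins in these libraries by RNA level, was at 428 and 358 RPKM in the WT libraries and at 411 and 373 in Kcnh2-/-. Its mean was 393 ± 49.1 for WT and 392 ± 26.97 for Kcnh2-/- (SD, 2 libraries per genotype), and in each library it stood between the 98.4th and 99.0th percentile of 18644 protein-coding genes. The log2 difference was 0.00010 ± 0.29 (SE, limma adjusted p = 1.00), -0.057 within replicate 1 and 0.058 within replicate 2. It was 0.25 after rescaling to an equal protein-coding sum and -0.27 after quantile normalization. Its sign changed as well when WT replicate 2 or Kcnh2-/- replicate 1 was left out. Its locus in the files is shared with Tspan31, a tetraspanin gene at 47.6 to 91.4 RPKM.

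Cdk6 (rn6 chromosome 4, 27785646 to 27966398) was at 3.67 and 24.5 RPKM in the WT libraries and at 7.88 and 19.3 in Kcnh2-/-. Both replicate 2 libraries were high, by 6.69-fold in WT and 2.45-fold in Kcnh2-/-, and the genotypes overlapped. The log2 difference was 0.30 ± 0.94 (SE, limma adjusted p = 0.984), with 0.93 within replicate 1 and -0.33 within replicate 2. With WT replicate 1 left out it became -0.93, and with Kcnh2-/- replicate 2 left out -0.30. Cdk4 exceeded Cdk6 by 117-fold and 14.6-fold in WT replicates 1 and 2 and by 52.2-fold and 19.4-fold in Kcnh2-/-.

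Cdkn1b (rn6 chromosome 4, 168689162 to 168693964) was the most even of the inhibitors. It stood at 17.8 and 12.9 RPKM in the WT libraries and at 9.03 and 12.04 in Kcnh2-/-, lower in both Kcnh2-/- libraries. The log2 difference was -0.50 ± 0.32 (SE, limma adjusted p = 0.980), -0.91 within replicate 1 and -0.094 within replicate 2. Nearly all of it came from the replicate 1 libraries, and it was -0.28 without WT replicate 1.

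The INK4 genes Cdkn2a and Cdkn2b, neighbours on chromosome 5, were high in the replicate 1 libraries and low in the others. Cdkn2a (rn6 chromosome 5, 107823329 to 107841175), which encodes both p16 and the p53 activator ARF in different reading frames, was at 51.3 and 1.61 RPKM in the WT libraries and at 12.3 and 3.52 in Kcnh2-/-. A value per gene does not separate its products. Cdkn2b (rn6 chromosome 5, 107845950 to 107858104) was at 33.8 and 1.04 RPKM in the WT libraries and at 14.6 and 0.607 in Kcnh2-/-. In WT, replicate 1 exceeded replicate 2 by 31.8-fold for Cdkn2a and 32.5-fold for Cdkn2b, and in Kcnh2-/- by 3.49-fold and 24.0-fold. The groups overlapped for both.

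The Cdkn2a log2 difference of -0.59 ± 1.55 (SE, limma adjusted p = 0.982) was -1.98 within replicate 1 and 0.79 within replicate 2. That of Cdkn2b, -0.75 ± 1.76 (SE, limma adjusted p = 0.981), was -1.16 within replicate 1 and -0.34 within replicate 2. Without WT replicate 1 they were 1.57 and 1.29, and without Kcnh2-/- replicate 2 they were 0.18 and 0.89. Cdkn2b was thus lower in Kcnh2-/- within both replicate numbers and Cdkn2a within replicate 1 alone. Leaving out a library sets unequal numbers of replicate 1 and replicate 2 libraries against each other. Mtap, a methionine salvage gene next to Cdkn2a at 107711076 to 107777530, was at 16.9 and 18.0 RPKM in the WT libraries and 18.6 and 18.3 in Kcnh2-/-. Klhl9, a ubiquitin ligase adaptor gene within 1 Mb, was at 59.6 and 35.3 against 45.6 and 40.3 RPKM. The span between libraries was 1.10-fold for Mtap, against 31.8-fold for Cdkn2a. The INK4 pair varied far more than these neighbours.

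The 3 inhibitors summed to 23.8% of the Cdk4 and Cdk6 sum in WT replicate 1 and to 4.07% in WT replicate 2, with 8.57% and 4.12% in Kcnh2-/-. Cdkn1b made up 83.0% and 74.5% of the inhibitor RPKM in the replicate 2 libraries of WT and Kcnh2-/-, and 17.3% and 25.2% in their replicate 1 libraries. Beside this, endoderm markers (8 genes) summed to 161 and 24.1 RPKM in the WT libraries and to 26.6 and 2.83 in Kcnh2-/-, and the fibroblast list (9 genes measured) to 171 and 5.69 against 31.2 and 2.40. Vim made up 153 of the 171 RPKM, Fap was at 0 in all libraries, and of the collagen genes Col1a1 was at 1.40 RPKM or less in every library while Col3a1 reached 9.41 RPKM in WT replicate 1 and 1.44 or less elsewhere. Neural markers (6 genes measured) summed to 52.9 and 14.2 in WT and to 24.2 and 19.2 in Kcnh2-/-. Tubb3 made up 44.6 of the 52.9 RPKM, while Map2 was lowest in WT replicate 1, at 0.293 RPKM against 0.566 to 1.76 elsewhere. Pou5f1 made up most of the pluripotency sum in every library. Of its other genes, Sox2 was lowest in Kcnh2-/- replicate 1 (18.1 RPKM against 33.9 in WT replicate 1) and Lin28a in Kcnh2-/- replicate 2 (101 against 196). Other pluripotency genes split by replicate number. Of the 8 tested, 3 were higher in replicate 2 by a log2 of 1 or more in both genotypes, and 0 were as much higher in replicate 1. Among these 3 was Nanog, at 2.496 and 72.6 RPKM in the WT libraries and 8.69 and 74.1 in Kcnh2-/-. WT replicate 1 was the highest library for the mesoderm, endoderm, fibroblast and neural sums, for Ccnd2, Ccne2, Cdkn2a and Cdkn2b, and the lowest for the pluripotency sum, Ccne1, Ccnd3 and Cdk6. The part of cell composition in these differences was not tested.

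**Figure D4:**
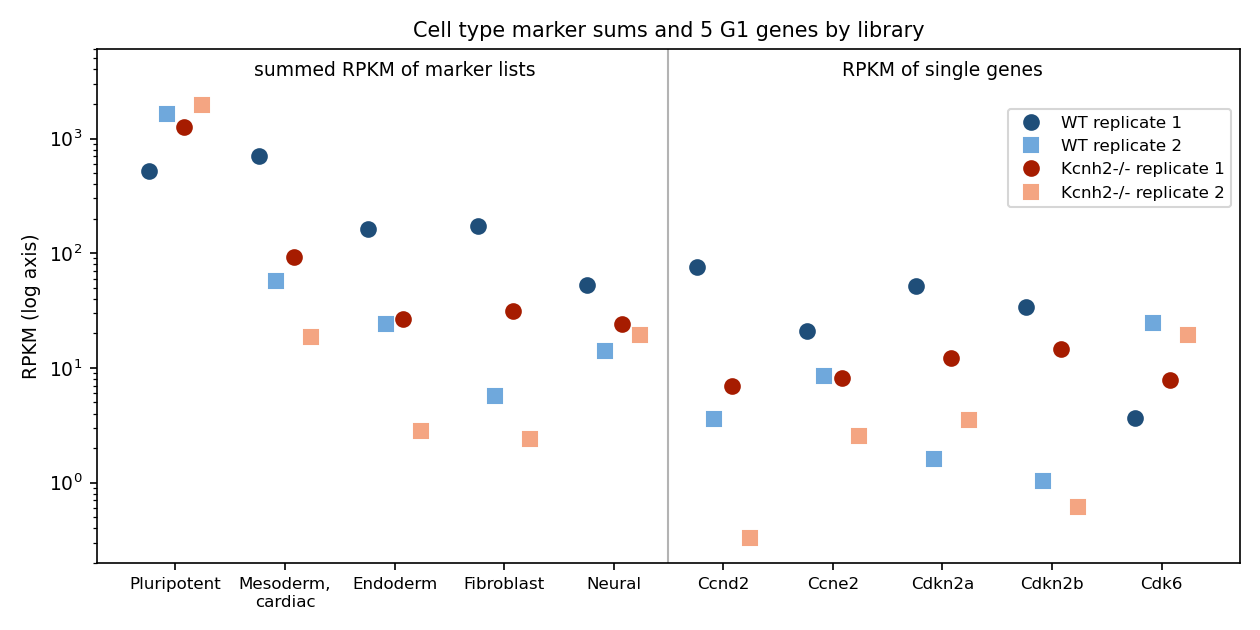
Summed RPKM of 5 cell type marker lists (left) and RPKM of 5 G1 genes (right) in each library, on a log axis. WT replicate 1 is highest for the mesoderm and cardiac sum (706) and for Ccnd2 (76.4), and lowest for the pluripotency sum (517) and for Cdk6 (3.67).

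Other genes of the G1 to S step were read from lists of 64 symbols, of which 62 were measured and 58 passed the filter. Limma called 0 of the 58 in either direction, and 1, Pola1, had an unadjusted p under 0.05. Of the 58, 12 were higher in Kcnh2-/- with no overlap and 3 were lower, and their median log2 difference was 0.092. Over all genes tested 16.7% were higher and 15.3% lower with no overlap, and the median was 0.0052. Among other inhibitors, the p53 target Cdkn1a, which encodes p21, was at 37.5 and 86.4 RPKM in the WT libraries and 49.9 and 146 in Kcnh2-/-. Cdkn1c, the imprinted gene of p57, was at 40.1 and 0.263 RPKM in the WT libraries and 13.6 and 2.79 in Kcnh2-/-, high in the replicate 1 libraries like Cdkn2a. Cdkn2c stayed at 0.138 RPKM or less.

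The S phase cyclin gene Ccna2 was at 102 and 124 RPKM in the WT libraries and 123 and 118 in Kcnh2-/-, and its partner Cdk2 at 22.0 and 16.3 against 16.3 and 16.8. Both overlapped between genotypes, and Ccna1 was at 0.50 RPKM or less. Of the CDK-activating kinase, Cdc25a and Cdc37 list, 1 of 5 genes, Ccnh, was higher with no overlap, against 16.7% of all genes, and the most abundant, Mnat1, was at 118 and 107 against 109 and 128 RPKM. Of the 3 pocket protein genes, Rbl1 was at 7.63 to 10.6 RPKM, Rb1 at 1.2 to 3.64 and Rbl2 at 1.72 to 2.34. Rbl1 was lower and Rbl2 higher in Kcnh2-/- with no overlap, as were 15.3% and 16.7% of all genes tested. Among 9 E2F and DP genes the medians were 0.062 within replicate 1 and -0.17 within replicate 2. Their most abundant members were Tfdp1, at 81.8 and 123 RPKM in the WT libraries and 85.4 and 95.0 in Kcnh2-/-, E2f4, at 25.6 and 33.7 against 39.2 and 39.1, and E2f5.

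Ubiquitin ligase genes that act on G1 cyclins and p27 had the highest share of genes above WT with no overlap. Of 10 tested, 9 had a positive log2 difference and 6 were higher in both Kcnh2-/- libraries than in either WT library, with a median of 0.17. The share of all genes tested that were higher with no overlap was 16.7%, and the 6 were counted in a list chosen with earlier results known. After quantile normalization 6 of 10 were positive, and without WT replicate 1 it was 7. Rbx1, the RING subunit, was at 549 and 953 RPKM in the WT libraries and 567 and 1589 in Kcnh2-/-, and the adaptor Skp1 at 666 and 531 against 719 and 692. Skp2, the receptor that binds p27, was at 36.4 and 33.8 RPKM in the WT libraries and 37.8 and 37.6 in Kcnh2-/-, and was named after its values were seen. Among transcriptional regulators, Mycn was at 55.1 and 72.8 RPKM against 85.1 and 47.3. Bmi1, the Polycomb gene known for repressing Cdkn2a, was at 26.7 and 6.44 in WT and 22.6 and 14.7 in Kcnh2-/-. Ezh2, another Polycomb gene, was at 37.0 and 24.9 in WT and 32.9 and 26.4 in Kcnh2-/-. Both were higher in the replicate 1 libraries, and any part of them in the Cdkn2a pattern was not tested.

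E2F target genes of DNA replication had a higher median difference within replicate 1 than within replicate 2. Of 20 tested, 18 had a positive log2 difference, with a median of 0.19 over both replicates, 0.52 within replicate 1 and -0.060 within replicate 2. With no overlap, 3 of the 20 were higher and 1 was lower in Kcnh2-/-, against 16.7% and 15.3% of all genes, so the list stood near the background. Without WT replicate 1, 13 of 20 were positive with a median of 0.082, and after quantile normalization 11 of 20 were. Pcna, the sliding clamp gene, was at 359 and 503 RPKM in the WT libraries and 441 and 413 in Kcnh2-/-. The helicase gene Mcm7 was at 211 and 239 against 267 and 230. Rrm2, the inducible subunit of ribonucleotide reductase, was at 122 and 257 RPKM in the WT libraries and 284 and 493 in Kcnh2-/-, higher with no overlap (log2 difference 1.08 ± 0.51 SE, limma adjusted p = 0.980). Pola1, the X-linked catalytic subunit of DNA polymerase alpha, was at 54.1 and 54.5 against 124 and 167 RPKM (log2 difference 1.39 ± 0.27 SE, limma adjusted p = 0.980).

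**Figure D5:**
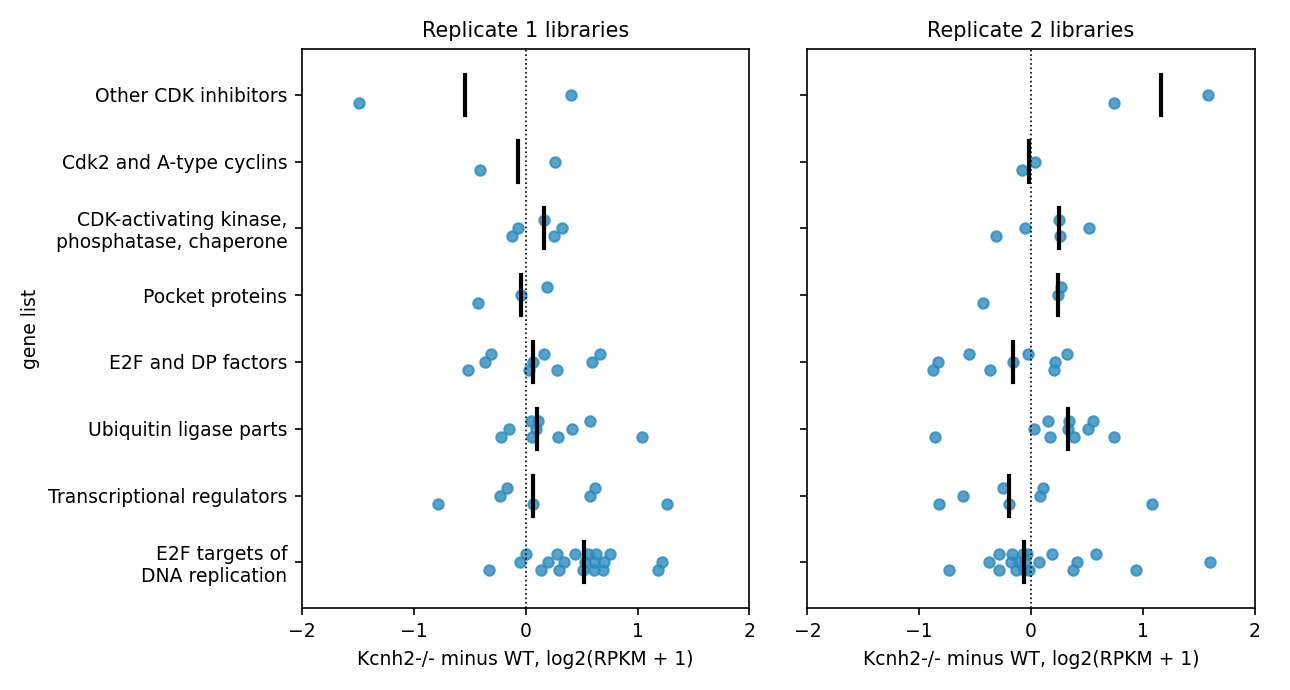
Differences in log2(RPKM + 1), Kcnh2-/- minus WT, within the replicate 1 libraries (left) and the replicate 2 libraries (right), for the 58 other G1 to S genes by list. Points are genes and black bars are list medians. The E2F targets have a median of 0.52 on the left and -0.060 on the right.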

How the data were processed

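RNA-seq was measured in 4 libraries of day 4 rat embryoid bodies, 2 WT and 2 Kcnh2-/-. Per the labels' protocols, ribosomal RNA was removed from total RNA before stranded libraries were prepared and read as 100-bp pairs. The authors deposited RPKM per gene, 1 table per library, made with TopHat2 2.0.13 and Cufflinks 2.2.1 on rn6, per the submitters' processing notes. The annotation version was not given in the sources used here. Cufflinks shares reads among overlapping transcripts, so genes of 1 locus are less certain.

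Genotypes were compared with limma 3.58.1 in R 4.3.3 (lmFit, then eBayes with trend) on log2(RPKM + 1). The test was two-sided and covered 12355 genes that reached 1 RPKM in 2 or more of the 4 libraries. P-values were adjusted by the Benjamini-Hochberg method, with a threshold of 0.05. Fold changes on that scale understate changes of low genes. The fit was also run on simulated data with the same noise level for every gene. These libraries need not share that setting, so no conclusion is drawn from that run. Values printed as fold are plain RPKM ratios. Protein-coding genes (18644) were picked by symbol in a RefSeq table (GRCr8), which matched 19341 of 32753 symbols. Over genes under 0.08 RPKM, the most common ratio (bin 0.01) held 30.4% of 484 genes between the replicate 1 libraries and 28.9% of 650 between the replicate 2 libraries, but 8.01% to 11.0% between libraries of different number. Absolute depth stays unknown.

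All 10 members are named. From each other list, the 3 genes of highest mean and any past the threshold could be named, and for each D-type cyclin the 3 genes nearest in pattern. Genes at 0 throughout and genes near Cdkn2a could be named too. Ccnh, Skp2, Pola1, Col1a1, Sox2, Ints8 and Tspan31 fall outside this rule and were named after their values were seen. Members, lists and tests were chosen with earlier results of these data known. Alternatives covered the pseudocount, filter, scaling, variance trend, gene set, replicate number and each library left out. Cdkn2d and E2f1 among the pathway lists, and Zfp42, Col1a2 and Sox1 among the markers, were not analysed here. Tables and figures were made in Python 3.11.15 with matplotlib 3.10.9, pandas 2.3.3 and numpy 2.4.6.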

Additional observations from a re-analysis of the deposited data

How the results depend on the processing

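Over 14 alternatives, Ccnd1 and Ccne1 stayed higher and Ccnd2, Ccne2 and Cdkn1b lower in Kcnh2-/-. A change of filter, variance trend, gene set or replicate block cannot move these log2 differences. Only the pseudocount, the scaling and the left-out libraries could have changed a sign. Leaving out each library in turn gave log2 differences of 0.28 to 0.67 for Ccnd1, -4.57 to -0.50 for Ccnd2, 0.018 to 1.04 for Ccne1, -2.04 to -0.66 for Ccne2 and -0.72 to -0.28 for Cdkn1b. The sign changed for Ccnd3 (-0.26 to 0.88), Cdk4 (-0.13 to 0.13, with -0.070 without Kcnh2-/- replicate 1), Cdk6 (-0.93 to 1.52), Cdkn2a (-2.75 to 1.57) and Cdkn2b (-2.80 to 1.29), and for Cdk4 after quantile normalization (-0.27). In each fit with a library left out, 1 group had 1 library, assumed to vary like the other. Of the 10 genes, limma called 0 under 13 of the 14 alternatives.

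The replicate numbers share only a number in the labels; across 12355 genes the deviations of same-numbered libraries from their group means correlated at 0.38, and across 10850 protein-coding genes at 0.58. With a replicate block, limma called 28 genes and 0 of the 10 (adjusted p = 0.20 for Ccnd2). With the replicate block and protein-coding genes alone it called 82 of 10850 genes, among them 1 of the 10, Ccnd2 (log2 difference -2.53, adjusted p = 0.034), and 1 of the other G1 to S genes, Pola1 (adjusted p = 0.043). Over all alternatives the adjusted p of Ccnd2 ran from 0.034 to 1.00.

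The count of called genes, 14 in the main setting (4 higher and 10 lower), was 1 with no filter, 3 without the trend, 3 over protein-coding genes alone and 0 to 15 with a library left out (0 without WT replicate 1 or without WT replicate 2). Rescaling to an equal protein-coding sum gave 103 (72 higher and 31 lower), moved the median of all genes to 0.22 and put Cdk4 at 0.25. Median-of-ratios scaling gave 1 higher and 10 lower, quantile normalization 8 higher and 10 lower. The cause of these shifts was not tested. Depth limits what can be said of Ccnd2 and Cdkn2b where they stand under 1 RPKM.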
